A study of Arabidopsis thaliana with 5 samples.

Results

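Plant U-box ubiquitin ligases (PUB proteins) were followed in roots of Arabidopsis thaliana on Affymetrix ATH1 arrays. The genes were those whose probe set carries a single gene symbol made of PUB and a number in the platform annotation. The rule gave 9 probe sets for 9 genes (PUB15, PUB19, PUB22, PUB23, PUB24, PUB25, PUB26, PUB43 and PUB49) among 13513 probe sets with 1 gene. The current RefSeq gene table lists 22 genes with such a symbol, and all 9 are among them. The other 13, PUB18 among them, were not analysed here.

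The study set 3 samples of root cells, freed from their walls and passed through a cell sorter, against 2 samples of intact whole roots. All 5 came from seedlings of the ecotype Columbia that had grown for 5 days at pH 5.7 and then spent 24 h on medium at pH 4.6 that contained 3 mM DMG, so both groups carry the low-pH treatment and no sample at standard pH enters. RNA came from about 50000 cells in each sorted sample and from 1 µg of total RNA in each whole-root sample. The labels name no reporter line, marker or gate for the sort and no mutant or transgene, and whether the replicates were grown as separate cultures is not stated. A p-value here thus covers only the spread among these 5 samples, which can be technical.

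Ubiquitin is passed from an activating enzyme (E1) to a conjugating enzyme (E2), and a ligase (E3) then helps to place it on a chosen protein, which is often degraded by the 26S proteasome. The U-box is the E2-binding fold of one class of ligases, and in most of the plant proteins described here it is joined to armadillo repeats that bind other proteins. PUB22, PUB23 and PUB24 are known as a closely related trio that dampens immune signalling. PUB19 and its near copy PUB18 are known to restrain responses to drought and to the hormone abscisic acid.

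PUB19 was far higher in sorted protoplasts, whereas the signals of PUB22 and PUB23 overlapped between the groups. PUB24 was lower, though not by enough to be called in every fit. PUB19 had a fitted log2 difference of 4.78 (SE 0.249, limma adjusted p = 1.02e-05). Its whole-root signals lay below 43.3, the bound used to filter dim probe sets, and set against that bound its sorted mean was 10.2-fold higher. It entered the test through its sorted signals alone, so its call is no support in itself. PUB24 had a log2 difference of -0.65 (SE 0.193, limma adjusted p = 0.0201). It was called in 6 of the 13 fits in which it was tested, the main fit included. Of the 9 genes, 7 were bright enough on average to be tested, and 1 of those rose, 1 fell and 5 did not pass a Benjamini-Hochberg adjusted p of 0.05. Over all 13647 tested probe sets, 60.6% passed that threshold, 34.1% as higher and 26.5% as lower in sorted protoplasts. Whether the PUB genes were called less often than that was not tested. The test was limma on log2 of the deposited signals, and a difference is always sorted protoplasts minus whole roots.

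The arrays themselves also differed between the groups. For the actin control, the signal of the 3′ probe set over that of the 5′ one lay between 19.8 and 29.3 in sorted protoplasts and between 3.08 and 3.295 in whole roots, and that of the ubiquitin control between 2.566 and 2.901 against 1.096 and 1.52. The GAPDH control differed less, at 1.334 to 1.511 against 1.054 to 1.147. An older design of the GAPDH control gave 5.216 to 9.177 in sorted protoplasts against 0.788 to 0.969 in whole roots. Shorter genes had lower differences: among tested genes with a length in the RefSeq table, the shortest 1830 (median gene length 1369 bp, introns included) had a median of -0.58 and the longest 1834 (4183 bp) one of 0.43. Sorted replicate 1 correlated at 0.954 and 0.956 with the other sorted samples, which correlated at 0.987 with each other. Both named leaf photosynthesis genes fell, RCA at -3.32 and LHCB4.1 at -3.002, with their summed signal between 92.6 and 112 in sorted protoplasts and between 802 and 971 in whole roots. Of the root markers, the root hair expansins EXPA7 and EXPA18 and the endodermal receptor kinase GSO1 did not pass (EXPA7 at -0.79 and GSO1 at 0.67, adjusted p = 0.140 and 0.133 by limma). EXPA7 was called lower without sorted replicate 3 (limma adjusted p = 0.0340), and GSO1 higher after median centring (limma adjusted p = 0.0389). The summed signal of the 2 hair genes was 46.1 to 130.4 in sorted protoplasts and 128 to 140.4 in whole roots. Of the 2 named cortex genes, AT1G62510 fell (-1.104), though its difference was 0.029 with the length trend removed and it was not called without whole-root replicate 2 (limma adjusted p = 0.0768). The sorted mean of AT1G62510, 35.5, lies below the filter bound, so it passed the filter through its whole-root signals. The other, AT1G09750, was below the filter and not tested, at 58.5, 80.5 and 62.1 in sorted protoplasts against 28.8 and 12.5 in whole roots. No stele or root cap gene on the list had a named probe set. The part of these differences in the results was not tested. In bulk samples, fewer cells of a type and less transcript per cell cannot be told apart.

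PUB19 (AT1G60190) is known from the drought response. Its signal was 386, 480 and 462 in sorted replicates 1 to 3, against 12.7 and 20.2 in whole-root replicates 1 and 2. Every sorted sample was above both whole-root samples, and the lowest of the 6 pairings of a sorted with a whole-root sample still differed by 4.25 on the log2 scale. Sorted protoplasts averaged 442.3 ± 50.0 (SD, n = 3) and whole roots 16.5 ± 5.33 (SD, n = 2). The filter bound of 43.3, applied to the mean over all arrays, is above both whole-root signals, and the value table used here holds no detection calls. The fitted difference is therefore imprecise. With 32 added to every signal before the log, the difference was 3.29, the lowest value among the alternatives.

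Leaving out 1 sample at a time gave differences of PUB19 from 4.44 (without whole-root replicate 1) to 5.12 (without whole-root replicate 2), each called. With the trend of difference on gene length removed it was 4.67.

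**Figure D1:**
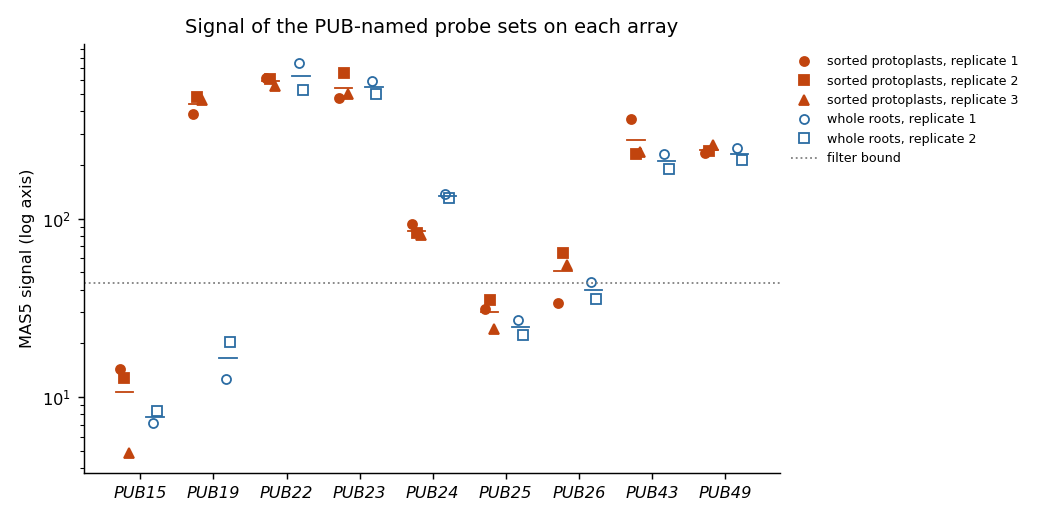
Deposited MAS5 signal (log axis) of the 9 PUB-named probe sets on each array, with sorted protoplasts as filled symbols to the left of whole roots as open symbols. Horizontal bars are group means and the dotted line is the filter bound of 43.3. PUB19 has sorted signals from 386 to 480 and whole-root signals of 12.7 and 20.2, while 7 of the other 8 genes overlap between the groups.

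PUB22 (AT3G52450) acts on the exocyst subunit Exo70B2 during immune signalling and, with PUB23, on the proteasome subunit RPN12a in drought. Its signal was 616, 606 and 552 in sorted protoplasts, against 742 and 527 in whole roots. The 2 whole-root samples lay on either side of all 3 sorted ones. The log2 difference was -0.08 (95% interval -0.4995 to 0.33, limma adjusted p = 0.709).

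PUB23 (AT2G35930), its closest relative here, had signals of 473, 654 and 500 in sorted protoplasts, against 595 and 503 in whole roots. The groups overlapped, with sorted replicate 2 the highest of all 5 samples and sorted replicate 1 the lowest. The difference was -0.03 (95% interval -0.46 to 0.40, limma adjusted p = 0.907). Neither interval shows equal levels in the groups. Only 1.86% of tested probe sets had a smaller absolute difference than PUB23, and 6.2% a smaller one than PUB22. After median centring both differences were positive (0.16 for PUB22 and 0.21 for PUB23) and still not called.

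PUB24 (AT3G11840) is the third gene of the trio. Its signal was 93.0, 83.2 and 80.5 in sorted protoplasts, against 138 and 130.5 in whole roots. All sorted samples were below both whole-root samples. The groups did not overlap at 2 of the 7 tested genes, PUB19 and PUB24, against 75.8% of all tested probe sets. The fall of PUB24 was 1.57-fold, and 54% of tested probe sets had a larger absolute difference. At 1631 bp it is among the shortest 1830 tested genes, and with the length trend removed the difference was -0.29 and not called (limma adjusted p = 0.213). Median centring ended the call as well (-0.41, adjusted p = 0.0944), as did a fit without sorted replicate 2 (adjusted p = 0.0601), sorted replicate 3 (0.0697), whole-root replicate 1 (0.103) or whole-root replicate 2 (0.0756). Under every alternative in which it was tested, the difference stayed below 0.

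PUB26 (AT1G49780) and PUB25 (AT3G19380) are a pair that marks the immune kinase BIK1 for degradation and also takes part in the response to cold. The signal of PUB26 was 33.7, 64.3 and 54.8 in sorted protoplasts, against 44.3 and 35.3 in whole roots. Sorted replicate 1 was the lowest of the 5 samples, and the groups overlapped. The difference was 0.31 (95% interval -0.48 to 1.10, limma adjusted p = 0.449). The whole-root mean of PUB26, 39.8, lay below the filter bound of 43.3, so it entered the test through its sorted signals. Without sorted replicate 2 or 3 it was not tested. PUB25 was below the filter, with 31.0, 34.9 and 24.1 in sorted protoplasts, against 26.9 and 22.2 in whole roots. The groups overlapped there too, and fitted with no filter its difference was 0.28 (95% interval -0.65 to 1.21, limma adjusted p = 0.632).

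PUB43 (AT1G76390) had signals of 364, 230 and 236 in sorted protoplasts, against 229.8 and 190 in whole roots. Sorted replicate 1 stood above the other 4 samples, and sorted replicate 2 fell just under whole-root replicate 1. The difference was 0.37 (95% interval -0.18 to 0.92, limma adjusted p = 0.209). It was 0.16 without sorted replicate 1 and 0.033 with the length trend removed. After median centring alone it was called (0.61, limma adjusted p = 0.0388).

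PUB49 (AT5G67530), in which the U-box is joined to a cyclophilin-type prolyl isomerase domain, had the narrowest spread among sorted samples relative to its mean. Its signal was 234, 240 and 259 in sorted protoplasts, against 248 and 214 in whole roots. The groups overlapped, and the difference was 0.08 (95% interval -0.29 to 0.46, limma adjusted p = 0.680). PUB15 (AT5G42340) had 14.3, 12.8 and 4.83 in sorted protoplasts, against 7.15 and 8.33 in whole roots. It was below the filter, and its sorted samples spanned both whole-root values.

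**Figure D2:**
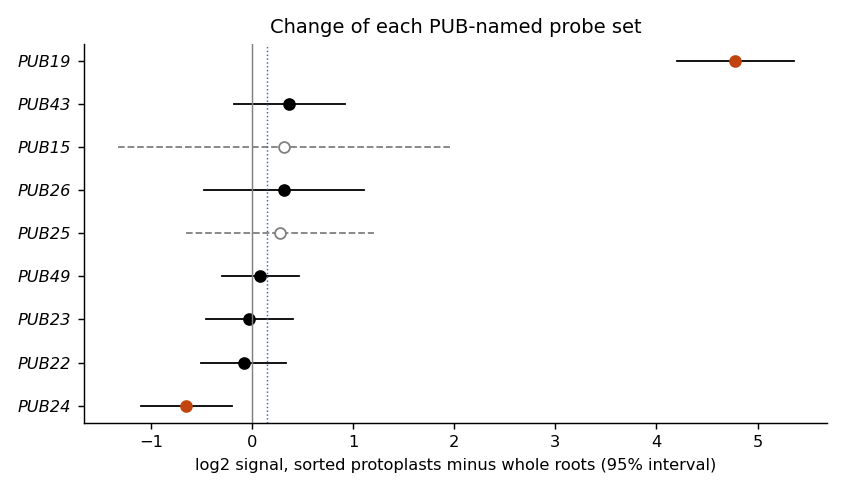
Log2 difference in signal, sorted protoplasts minus whole roots, of each PUB-named probe set with its 95% limma interval. Orange points were called, black points were tested and not called, and open points with dashed intervals were below the filter and come from the fit with no filter. The dotted vertical line is the median of all tested probe sets (0.15). The interval of PUB19 runs from 4.203 to 5.36 and those of all genes but PUB19 and PUB24 include 0.

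Across the 8 genes other than PUB19 the differences ran from -0.65 to 0.37, with a median of 0.18. PUB15 and PUB25, which were below the filter, are included. The median was 0.15 over all tested probe sets and -0.018 over all probe sets but the controls, tested or not. Of these 8, 5 were above 0 and 3 below. The median of all tested probe sets was 0.39 after median centring, which shifts each array as a whole, and 0.20 after quantile normalization, which moves probe sets by different amounts. Relative to the median of all tested probe sets, PUB19 stood at 4.63 as deposited and after median centring, and at 4.79 after quantile normalization. PUB24 stood at -0.80, -0.80 and -0.69 on the same scalings. PUB22 stood at -0.23, -0.23 and -0.38, and PUB23 at -0.18, -0.18 and -0.32.

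**Figure D3:**
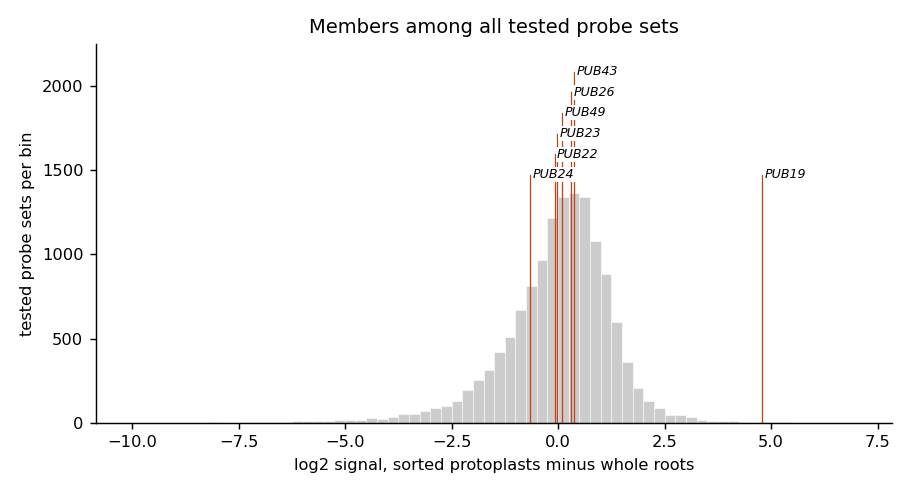
Number of tested probe sets by log2 difference (sorted protoplasts minus whole roots, bins of 0.25), with a line at each of the 7 tested PUB genes. PUB19 lies at 4.78, beyond the 95th percentile of 1.70, and the other 6 lie between -0.65 and 0.37.

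The change of PUB19 was then set against that of each of the other 8 genes, using the log2 signal of PUB19 minus that of the other gene on each array. PUB19 minus PUB22 lay between -0.68 and -0.26 in the 3 sorted samples and between -5.87 and -4.70 in the 2 whole-root samples, a difference of 4.86. PUB19 minus PUB23 lay between -0.45 and -0.11 in sorted samples and between -5.55 and -4.63 in whole roots, a difference of 4.81. Against PUB24 the difference was 5.43, the largest of the 8, and against PUB43 it was 4.41, the smallest. In all 8 pairs the sorted and whole-root values did not overlap. The pairs share the same PUB19 signals, which alone did not overlap, so they are not separate observations. Of all tested probe sets, 75.8% did not overlap between the groups. PUB19 was below the filter bound in whole roots, and PUB15 and PUB25 were below the filter. With 32 added to every signal before the log, the smallest difference was 2.96, against PUB43. With 3 samples against 2, the two-sided exact permutation test cannot give a p under 0.2, and it gave 0.2 for each of the 8 pairs, also after Benjamini-Hochberg adjustment. That test could thus not pass a threshold of 0.05 with these samples, and the values stand as a description. Only changes are compared here, since probe sets bind with different strength and their levels cannot be set against each other.

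A wider list of 57 U-box loci was written from general knowledge of the family. The tables used here name few of them, so most are given by locus. Of these, 33 had a single-gene probe set, and 24 of the 33 carry no PUB symbol. Of the 24, 16 were tested, and 8 of those rose, 4 fell and 4 were not called, beside 34.1% higher and 26.5% lower over all tested probe sets. Their median was 0.45, against 0.15 over all tested probe sets. These counts were also 8 and 4 after median centring and after quantile normalization, and 6 and 4 with the length trend removed. Without sorted replicate 1 they were 8 and 5. Without whole-root replicate 2, 6 rose and 2 fell among 15 tested, 8 calls against 12 with all samples.

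AT1G23030 had the largest rise of these other loci, with signals of 1141, 632 and 647 in sorted protoplasts, against 149 and 131 in whole roots. All sorted samples were above both whole-root samples, at a log2 difference of 2.47 (SE 0.267, limma adjusted p = 0.000179). Its 6 pairings reached 3.12 at most, below the lowest pairing of PUB19 at 4.25. The whole-root signals of PUB19 lay below the filter bound, so the width of that gap is imprecise. The fitted differences were 3.29 for PUB19 and 2.23 for AT1G23030 with 32 added to every signal before the log. AT1G71020, named after its values were seen, rose by 2.02. PUB19 was 1 of 3 tested loci on the list with a rise of 2 or more on the log2 scale.

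AT3G61390 fell most, with 31.2, 17.7 and 12.3 in sorted protoplasts, against 235 and 214 in whole roots. The groups were far apart (-3.57, SE 0.392, limma adjusted p = 0.000191). It passed the filter through its whole-root signals, and its sorted mean lies below the bound. The loci AT2G45910 (-1.18) and AT2G45920 (-1.49), named after their values were seen, both fell. MAC3A and MAC3B, U-box ligases of the spliceosome-linked Prp19 complex, were the only other loci on it that carry a symbol, and both rose. MAC3B was at 3807, 3830 and 3683 in sorted protoplasts, against 1801 and 1582 in whole roots (1.16, SE 0.127, limma adjusted p = 0.000187). MAC3A rose by 0.93.

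**Figure D4:**
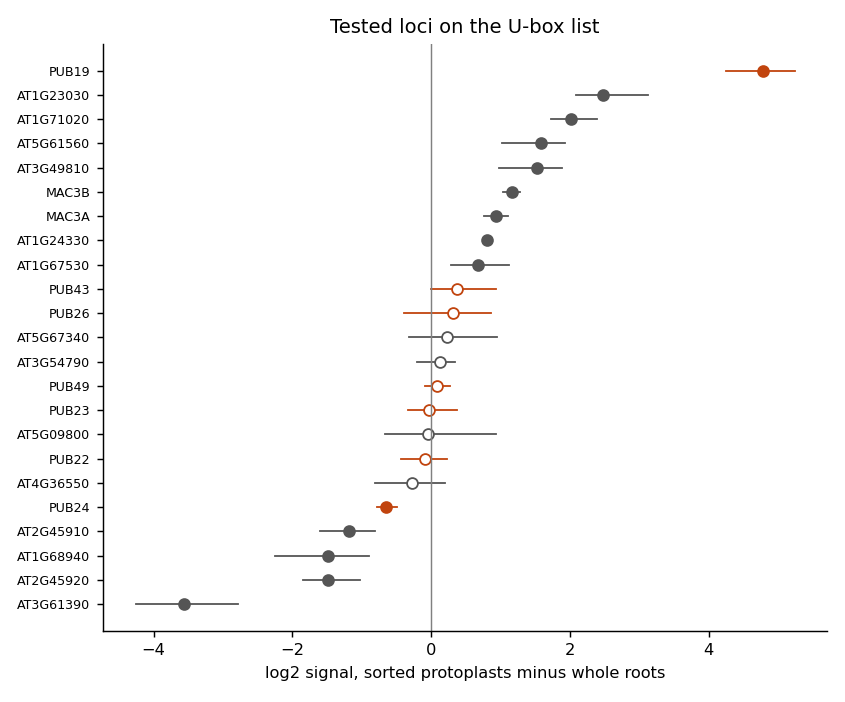
Log2 difference in signal, sorted protoplasts minus whole roots, of the 23 tested loci on the U-box list. Lines span the 6 pairings of a sorted with a whole-root sample, filled points were called and open points were not, and PUB-named genes are orange. PUB19 is at the top at 4.78, AT1G23030 follows at 2.47 and AT3G61390 is at the bottom at -3.57.

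The enzymes upstream of the ligases were sparsely named. Of 28 listed genes for ubiquitin and its E1 and E2 enzymes, 4 E2 genes had a named probe set. Of these 4, 3 fell and 1 did not pass, beside 26.5% lower over all tested probe sets. UBC29 was at 196, 113 and 73.9 in sorted protoplasts, against 793 and 837 in whole roots (-2.79, SE 0.359, limma adjusted p = 0.0004). UBC30 fell by 2.03 on the log2 scale, and UBC32, an E2 of the endoplasmic reticulum, by 0.73. UBC28 had a difference of -0.11 and did not pass (limma adjusted p = 0.564).

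Downstream, 7 of 26 listed 26S proteasome loci had a named probe set, and 6 of them rose while 0 fell, beside 34.1% higher and 26.5% lower over all tested probe sets. Their median was 0.59, against 0.15. AT1G45000 (0.96) and AT1G04810 (0.85) rose most. RPN12a, the subunit that PUB22 and PUB23 act on, had 1434, 1405 and 1411 in sorted protoplasts, against 1444 and 1554 in whole roots. These signals lay just under those of whole roots, and the difference did not pass (-0.08, 95% interval -0.37 to 0.21, limma adjusted p = 0.601). Over the alternatives, 4 to 6 of the 7 proteasome loci were called, each of them as higher.

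Of ligases of the other large class, which use a RING fold, 2 of 18 listed genes were named, and both fell (26.5% of all tested probe sets did). BRH1, a brassinosteroid-responsive RING gene, had a difference of -1.13 (SE 0.228), and AT1G72200 one of -1.69 (SE 0.313). BRH1 was not called with the length trend removed (-0.43, limma adjusted p = 0.144).

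Among immune receptors and targets of U-box ligases, only BIK1 of 15 listed genes was named. Its signal was 413, 448 and 381 in sorted protoplasts, against 639 and 572 in whole roots, with no overlap. It fell (-0.55, SE 0.152, limma adjusted p = 0.0148), but was not called after median centring (-0.31, adjusted p = 0.115), without sorted replicate 3 (0.0635), and without whole-root replicate 1 (0.113) or 2 (0.0510).

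For the abscisic acid and drought response in which PUB19 acts, 1 of 20 listed genes was named, the dehydrin COR47. It had 5204, 2816 and 3088 in sorted protoplasts, against 6350 and 7290 in whole roots. It fell (-0.93, SE 0.253, limma adjusted p = 0.0137), with sorted replicate 1 nearest to the whole roots. Leaving out whole-root replicate 1 (adjusted p = 0.0566) or 2 (0.102) ended the call. A single gene does not describe that response.

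Of 18 listed wound and elicitor genes, 5 were named, and 4 rose while 0 fell (34.1% and 26.5% over all tested probe sets), with a median of 2.95. AT3G02840 rose by 5.74 and ORA47, a transcription factor of jasmonate signalling, by 3.31, at signals of 329, 428 and 403 in sorted protoplasts against 39.3 and 38.0 in whole roots. The zinc finger gene STZ (1.72) and WRKY53 (2.95) also rose, and the lignin enzyme gene CCR2 did not pass (-0.09, limma adjusted p = 0.795). ORA47, AT3G02840 and WRKY53 had whole-root means below the filter bound, as PUB19 did. Genes this dim in whole roots could enter the test only by rising. The list was chosen with earlier results of these data known, and AT3G02840 with its rise in these samples known. The count is therefore not independent evidence.

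The genes whose change over the 5 arrays was most like that of PUB19 were found by the distance between log2 signals after each probe set's own mean was subtracted, among 7365 other tested single-gene probe sets. The nearest was AT5G35940, at a distance of 0.486, with 1911, 3115 and 3387 in sorted protoplasts, against 64.5 and 110.3 in whole roots. In both genes sorted replicate 1 was the lowest sorted sample and whole-root replicate 2 the higher whole-root sample. The choice by distance over these same arrays favours such a shared order, so it is no further likeness. AT5G66650 (0.5525), AT3G49190 (0.775) and AT5G58784 (0.785) followed, with log2 differences from 4.29 to 4.90. The whole-root means of AT5G66650 (25.6) and AT5G58784 (24.4) lay below the filter bound, and that of AT3G49190 (45.1) just above it. AT5G66650 and AT5G58784 thus entered the test through their sorted signals, as PUB19 did, and the size of their differences is imprecise. None of the 4 carries a name beyond its locus in the tables used here.

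In the gene table, the protein-coding gene after PUB19 is AT1G60200. It moved the other way: its tested probe set had 141, 169 and 111 in sorted protoplasts, against 279 and 285 in whole roots (-1.03, SE 0.213, limma adjusted p = 0.00394). This gene was chosen for its position.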

How the data were processed

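Biotin-labelled RNA of 3 sorted and 2 whole-root samples was measured on ATH1 arrays. The deposited values are intensity values, 1 linear signal per probe set, which per the submitters' processing notes come from MAS5 (version not given in the sources used here). The mean after trimming 2% at each end was 250.02 on each array, so arrays had been scaled alike. Arrays hold no counts, and their number limits precision.

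Signals were log2-transformed. The 64 control probe sets and the 40% with the lowest mean (9099) were left out, and 13647 were tested with limma 3.58.1 in R 4.3.3 (mean-variance trend, group as factor, 3 residual degrees of freedom) and Benjamini-Hochberg adjustment over all of them at 0.05. Permutation tests used scipy 1.17.1. The fit was also run on simulated data in which few probe sets changed, unlike here. That run checks the code and not the design.

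Probe sets were named by the platform annotation and 13436 of 13513 single-gene ones matched the RefSeq table (TAIR10.1). Named genes were all PUB members, per list the 2 largest called differences (or the smallest adjusted p), and the 4 genes nearest PUB19. Members and lists were chosen with earlier results of these data known. Alternatives were 2 other scalings, a pseudocount of 32, no filter or 60%, no trend, a replicate block, removal of a length trend, and leaving out each sample. Coordinates were left out, since the sources used here name no build for the array.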

Additional observations from a re-analysis of the deposited data

How the results depend on the processing

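PUB19 was called higher in each of the 12 alternatives in which it was tested (3.29 to 5.12, adjusted p from 5.73e-07 to 0.000601). It was not tested at the 60% filter, which its mean did not pass, and there 0 of 4 tested PUB genes were called. In the filtered fits PUB19 entered through its sorted signals alone, so those repeated calls are no support in themselves. The count of PUB genes called, 2 with all samples, was 1 with the replicate block and 1 with the length trend removed, and 1 to 2 when 1 sample was left out, because PUB24 was lost. After median centring it was 2, with PUB43 in place of PUB24. PUB22 changed sign after median centring (0.16), with the length trend removed (0.14) and in the absence of whole-root replicate 1, with values from -0.33 to 0.16 when 1 sample was left out. PUB23 did so after median centring (0.21), with the replicate block (0.023) and with the length trend removed (0.27), with values from -0.17 to 0.095 when 1 sample was left out. PUB22 and PUB23 were called in no alternative. PUB49 changed sign with the length trend removed (-0.23) and in the absence of whole-root replicate 2, with values from -0.021 to 0.19 when 1 sample was left out. AT1G62510 changed sign with the length trend removed (0.029). The causes were not tested. Where an arm had 1 sample left, it was assumed to vary like the other arm.

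Calls over all tested probe sets were 4649 higher and 3623 lower (56.2% higher), and 5925 and 2876 (67.3%) after median centring. Replicate numbers are shared by label only. With the block, EXPA7 (adjusted p = 0.0295) and GSO1 (0.0455) were called, and PUB24 (0.103) and BIK1 (0.0948) were not. Replicate 1 minus replicate 2 correlated at 0.00416 between the groups across probe sets, so the numbers do not show pairs. The smallest difference of PUB19 from another PUB gene was 2.96 to 4.69 over the alternatives. List counts under the alternatives were added after seeing the data, and at the 60% filter 7 of 9 tested other U-box loci and 2 of 3 wound and elicitor genes were called. Signals below the filter bound have no detection call here, which limits the folds of PUB19, of AT3G61390 and of the other genes with a group mean below it.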
